A study of Mus musculus with 6 samples.

Results

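The transcripts of 10 immune checkpoint and costimulation genes were measured by bulk RNA sequencing in CT26 tumors of mice given the kinase inhibitor H89 or NaCl. The genes are the receptors Pdcd1, Ctla4, Lag3, Havcr2, Tigit and Icos and the ligands Cd274, Pdcd1lg2, Cd80 and Cd86. They were chosen by name, 10 of the 23557 genes in the table, with earlier results of these data known. CT26 is a colorectal carcinoma line of the BALB/c strain, and 500000 cells were placed under the skin of female BALB/c mice that were 7 weeks old. From day 6, 3 of the mice sequenced received H89 at 10 mg/kg into the peritoneum 2 times a week and the other 3 received NaCl by the same route. All 6 tumors were removed whole on day 14, so each value covers tumor cells, stroma and immune cells together, and fewer cells of a type and less RNA per cell cannot be told apart. The model is an implanted line grown outside the colon, in mice with an intact immune system and no genetic change named. No further detail ties the tumors to cages or days, so p-values measure the spread between these 6 tumors.

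Checkpoint receptors are switches on the surface of lymphocytes. PD-1, CTLA-4, LAG-3, TIM-3 and TIGIT dampen an activated T cell after they bind a ligand on a tumor cell, macrophage or dendritic cell, whereas ICOS adds a stimulating signal. The same CD80 and CD86 molecules activate T cells through CD28 and are taken up by CTLA-4, and PD-L1, the product of Cd274, is induced by interferon-gamma and is the ligand that antibodies block in patients. Most of these receptors are switched on by T cell activation and stay high on exhausted T cells in tumors, so their level in a whole tumor depends on how many T cells it holds as well as on the state of those cells. For that reason each gene was also expressed relative to Cd3e, which encodes the CD3 epsilon chain of the T cell receptor complex, in the same tumor.

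Values are CPM, counts per 1000000 of the deposited estimated read counts, scaled between tumors by the trimmed mean of M values (TMM). The totals ran from 27067349 to 31958793 counts per tumor, and 1 count was worth 0.0313 to 0.0369 CPM before scaling. The checkpoint genes are scarce: their counts ran from 9, for Ctla4 in NaCl tumor 3, to 2421, for Cd274 in H89 tumor 3. All 10 passed the filter of a mean of at least 0.5 CPM, which left 13118 genes for the test. The label of the tissue was checked against 6 epithelial genes. Krt20 was at 65.7 to 103 CPM and Krt18 at 7.75 to 23.5 CPM, while Krt19 was at 0 to 2.53, Krt8 at 0.149 to 2.17, Cdh1 at 1.05 to 2.84 and Epcam at 0 to 1.18 CPM, so 4 of the 6 stayed under 3 CPM. H89 tumor 1 stood apart in skeletal muscle genes, whose summed level was 18.8 CPM there and 0.95 to 2.34 CPM in the other tumors. The part of this tissue in the results was not tested beyond leaving that tumor out.

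None of the 10 genes passed an adjusted p under 0.05 in edgeR's quasi-likelihood test with Benjamini-Hochberg adjustment, in a table in which 1.59% of the genes did (0.861% higher and 0.724% lower in H89 tumors). At an unadjusted p under 0.05, 4 of the 10 passed, Pdcd1, Lag3 and Cd274 as higher and Tigit as lower in H89 tumors, where 25.0% of all genes passed (13.1% higher and 11.9% lower). DESeq2 called 2 of the 10, Pdcd1 and Lag3, both with higher values in H89 tumors, where it called 10.4% of the genes it tested, 4.75% as higher. Limma was run on log2(CPM + 0.5) with CPM not scaled by TMM, so scaling and test both differ from edgeR. It called none of the 10 after adjustment, where it called 1.3% of all genes. In that fit 5 had an unadjusted p under 0.05, as did 24.4% of all genes. The median log2 fold change of the 10 was 0.83, against 0.004 over all genes tested, and 9 of the 10 values were above 0. Without H89 tumor 1, which held the muscle transcripts, the median was 0.99, and it was 0.39 without H89 tumor 3 and 1.54 without NaCl tumor 1. A log2 fold change of 1.00 or more was found for 5 of the 10 (Pdcd1, Lag3, Ctla4, Cd274 and Icos), a size reached upward by 2.7% of all genes. Groups that do not overlap in CPM were found for 1 of the 10, Tigit, whereas 30.7% of all genes separated the groups, 15.5% lower and 15.2% higher in every H89 tumor. For CPM without TMM it was again Tigit, beside 30.5% of all genes, 10.0% lower and 20.5% higher. H89 tumor 3 held the highest value of 8 genes. In 7 genes, those other than Tigit, Cd80 and Cd86, NaCl tumors 2 and 3 lay below every H89 tumor and NaCl tumor 1 did not.

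**Figure D1:**
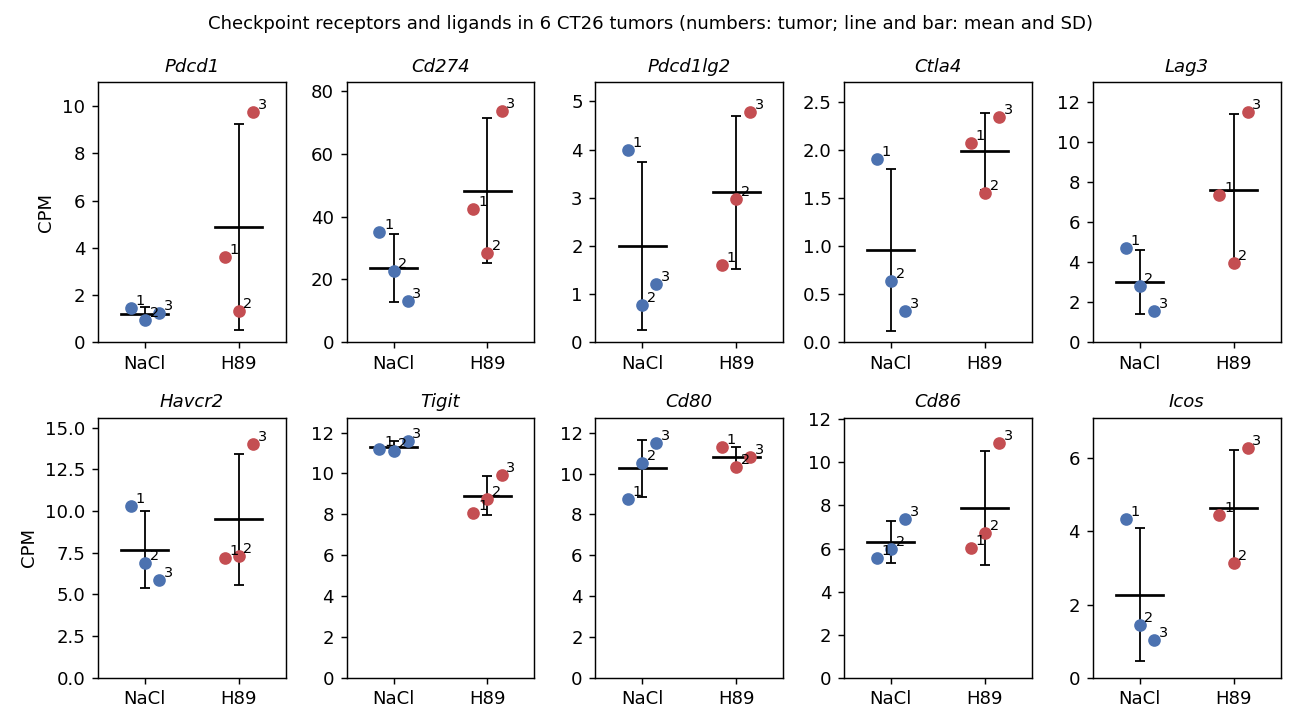
CPM of each of the 10 genes in the 3 NaCl and 3 H89 tumors, with axes from 0. Points carry the tumor number, and the line and bar are the mean and SD of 3 tumors. H89 tumor 3 is the highest point in 8 panels, NaCl tumor 1 reaches into the H89 range in 7, and the groups separate only for Tigit.

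Pdcd1 encodes PD-1, the inhibitory receptor for PD-L1 and PD-L2 (ENSMUSG00000026285, GRCm38 chr1:94038305-94052553, minus strand). It was at 1.47, 0.932 and 1.24 CPM in NaCl tumors 1 to 3 and at 3.60, 1.31 and 9.73 CPM in H89 tumors 1 to 3. H89 tumors 1 and 3 stood above all NaCl tumors, and H89 tumor 2 lay within their range. The means were 1.22 ± 0.272 and 4.88 ± 4.35 CPM (SD, n = 3), the largest fold among the 10 genes. The log2 fold change was 2.00 ± 0.65 (SE), with an edgeR adjusted p of 0.121 and a DESeq2 adjusted p of 0.0092. An exact two-sided permutation test gave 0.2, where the smallest p that 3 against 3 tumors allow is 0.1. H89 tumor 3 alone held 320 of the Pdcd1 counts, against 25 to 101 in the other tumors, and without it the log2 fold change was 1.00.

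Lag3 encodes LAG-3, an inhibitory receptor that binds MHC class II (ENSMUSG00000030124, chr6:124904361-124911705, minus strand). Its values were 4.68, 2.80 and 1.54 CPM in NaCl and 7.32, 3.96 and 11.5 CPM in H89 tumors. The order was that of Pdcd1 in the H89 tumors, and only NaCl tumor 1 exceeded H89 tumor 2. The log2 fold change was 1.33 ± 0.47, with an adjusted p of 0.142 in edgeR and 0.0271 in DESeq2. It stayed between 0.90 and 1.81 with any single tumor left out.

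Ctla4 encodes CTLA-4, which competes with CD28 for CD80 and CD86 and is carried at high level by regulatory T cells (ENSMUSG00000026011, chr1:60887000-60915832, plus strand). It was at 1.91, 0.634 and 0.329 CPM in NaCl and at 2.07, 1.55 and 2.34 CPM in H89 tumors, from 9 to 77 counts per tumor. NaCl tumor 1 was again inside the H89 range. The log2 fold change was 1.05 ± 0.55, with an edgeR adjusted p of 0.275, and it was 0.64 without NaCl tumor 3 and 2.04 without NaCl tumor 1.

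Icos, whose product is the costimulatory receptor of follicular and regulatory T cells, lies on the same chromosome (ENSMUSG00000026009, chr1:60977927-61000320, plus strand), 62.1 kb from Ctla4, in a cluster that also holds Cd28, 114 kb from Ctla4. It was at 4.35, 1.45 and 1.02 CPM in NaCl and at 4.46, 3.13 and 6.29 CPM in H89 tumors. The ranks of the tumors were those of Ctla4. Its log2 fold change was 1.02 ± 0.52, with an edgeR adjusted p of 0.263, and it was 0.67 without NaCl tumor 3 and 1.90 without NaCl tumor 1. Cd28, the main activating receptor for CD80 and CD86, was at 0.708 to 2.30 CPM in NaCl and 1.76 to 4.38 CPM in H89 tumors, with a log2 fold change of 1.05 ± 0.52 and an edgeR adjusted p of 0.252.

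Havcr2 encodes TIM-3, an inhibitory receptor that macrophages and dendritic cells carry besides T cells (ENSMUSG00000020399, chr11:46454935-46481255, plus strand). It was at 10.3, 6.88 and 5.86 CPM in NaCl and at 7.19, 7.27 and 14.0 CPM in H89 tumors. The values of 2 H89 tumors lay inside the NaCl range. The log2 fold change of 0.31 ± 0.31 had an edgeR adjusted p of 0.579, and without H89 tumor 3 it was -0.09.

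Tigit encodes TIGIT, an inhibitory receptor of T and NK cells for the poliovirus receptor (ENSMUSG00000071552, chr16:43648867-43664146, minus strand). It was at 11.2, 11.1 and 11.6 CPM in NaCl and at 8.04, 8.77 and 9.94 CPM in H89 tumors. Every H89 tumor lay below every NaCl tumor, the direction opposite to that of the other receptors. The means were 11.3 ± 0.284 and 8.92 ± 0.957 CPM (SD, n = 3), and the log2 fold change was -0.34 ± 0.13, with an edgeR adjusted p of 0.166. The exact permutation p was 0.1, the smallest possible. With single tumors left out the log2 fold change ran from -0.42 to -0.27.

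Cd274 encodes PD-L1 (ENSMUSG00000016496, chr19:29367455-29388095, plus strand). It was the most abundant of the 10 in CPM, at 35.0, 22.6 and 13.2 CPM in NaCl and at 42.5, 28.5 and 73.6 CPM in H89 tumors. The H89 tumors ranked as for Lag3 and Pdcd1, and NaCl tumor 1 lay above H89 tumor 2. The means were 23.6 ± 10.9 and 48.2 ± 23.1 CPM (SD, n = 3), with a log2 fold change of 1.03 ± 0.41 and an edgeR adjusted p of 0.175, which ran from 0.141 to 0.405 over the 16 alternative fits. Its fold change on this scale was 0.58 without H89 tumor 3 and 1.43 without NaCl tumor 1. Its exons overlap those of the annotated gene AC119228.1, so reads of the 2 genes may have been divided between them. Its counts lay up to 0.34 from a whole number. Those of Tigit and Havcr2, with no annotated overlap, lay up to 0.491 and 0.396, so a fraction alone does not mark an overlap.

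Pdcd1lg2, the gene of PD-L2, follows Cd274 on chromosome 19 after 22.8 kb (ENSMUSG00000016498, chr19:29410919-29471161, plus strand). It was at 3.99, 0.783 and 1.21 CPM in NaCl and at 1.60, 2.98 and 4.77 CPM in H89 tumors. The groups overlapped, with NaCl tumor 1 above 2 of the H89 tumors. The log2 fold change was 0.65 ± 0.62, with an edgeR adjusted p of 0.546, and it was 0.20 without H89 tumor 3 and 1.65 without NaCl tumor 1. Per tumor, Pdcd1lg2 was 0.0347 to 0.114 of Cd274 in counts, and the log2 ratio differed by -0.16 between groups (exact permutation p = 0.8), a sign that turned when NaCl tumor 1, NaCl tumor 3 or H89 tumor 1 was left out.

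Cd80 and Cd86 are the ligands of CD28 and CTLA-4 on antigen-presenting cells, 1.79 Mb apart on chromosome 16 (Cd80 ENSMUSG00000075122, chr16:38455561-38496335, plus strand; Cd86 ENSMUSG00000022901, chr16:36603869-36666081, minus strand). Cd80 was at 8.74, 10.5 and 11.5 CPM in NaCl and at 11.3, 10.3 and 10.8 CPM in H89 tumors. Cd86 was at 5.54, 5.97 and 7.38 CPM in NaCl and at 6.03, 6.72 and 10.9 CPM in H89 tumors. Cd80 spanned no more than 1.31-fold over the 6 tumors, the least of the 10 genes, and Cd86 stood out only in H89 tumor 3. The log2 fold changes were 0.08 ± 0.14 for Cd80 and 0.32 ± 0.25 for Cd86, with edgeR adjusted p of 0.764 and 0.444, and that of Cd86 was 0.02 without H89 tumor 3.

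The promoters of Cd274 and Pdcd1, which varied with the T cell genes over the 6 tumors, and of Tigit, which did not, are shown as the 250 bases that precede the start site in RefSeq (GRCm38.p6), each read along the strand of the gene, with capitals for GGAAA or its complement TTTCC, the core bound by NFAT, the factor that T cell receptor signals activate. The windows are chr19:29367188-29367437 for Cd274, chr1:94052554-94052803 for Pdcd1 and chr16:43664185-43664434 for Tigit.
Cd274: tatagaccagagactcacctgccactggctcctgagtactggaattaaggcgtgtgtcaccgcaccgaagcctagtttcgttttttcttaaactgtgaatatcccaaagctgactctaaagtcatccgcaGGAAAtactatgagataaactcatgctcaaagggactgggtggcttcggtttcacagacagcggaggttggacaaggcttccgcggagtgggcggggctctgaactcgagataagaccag
Pdcd1: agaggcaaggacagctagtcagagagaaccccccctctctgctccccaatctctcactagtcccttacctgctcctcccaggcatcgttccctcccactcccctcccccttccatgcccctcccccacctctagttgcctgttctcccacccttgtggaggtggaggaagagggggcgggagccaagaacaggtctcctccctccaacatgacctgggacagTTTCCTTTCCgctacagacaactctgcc
Tigit: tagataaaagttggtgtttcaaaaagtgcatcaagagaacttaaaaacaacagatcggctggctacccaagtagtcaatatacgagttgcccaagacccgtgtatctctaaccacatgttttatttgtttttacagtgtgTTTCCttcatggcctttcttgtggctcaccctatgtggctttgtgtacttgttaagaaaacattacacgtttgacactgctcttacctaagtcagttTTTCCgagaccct
The RefSeq table held promoters of 7 of the 10 genes, all but Lag3, Cd86 and Icos. In the window from 250 bases before to 50 bases after the start, GGAAA on either strand was in 5 of the 7 (Cd274, Ctla4, Pdcd1, Pdcd1lg2 and Tigit) and in 61.3% of all 32851 promoters, so its presence is common. The interferon-gamma activated site TTCNNNGAA was in none of the 7 and in 8.30% of all promoters. The core of the interferon-stimulated response element (ISRE) was in none of the 7 and in 3.44%. The cAMP response element TGACGTCA and its shorter form TGACG, which it contains, were in none of the 7 and in 1.79% and 20.8% of all promoters. All motifs were searched on both strands, and a match is a run of letters, not a measured binding site.

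Cd3e itself was at 3.78, 1.75 and 1.24 CPM in NaCl and at 4.71, 2.40 and 8.15 CPM in H89 tumors, a log2 fold change of 1.17 ± 0.52 with an edgeR adjusted p of 0.211. NaCl tumor 1 exceeded H89 tumor 2, as for 8 of the 10 checkpoint genes, all but Cd80 and Cd86. Among these 8 is Tigit, for which every NaCl tumor exceeded every H89 tumor. Over the list of T cell markers, all 14 genes tested of 15 had a log2 fold change above 0, with a median of 1.22. In edgeR, 9 passed an unadjusted p under 0.05, as did 25.0% of all genes (13.1% as higher). An adjusted p under 0.05 was found for 0, where 1.59% of all genes had it. DESeq2 called 5, where it called 10.4% of the genes it tested. Their summed level was 45.4 to 96.5 CPM in NaCl and 79.4 to 149 CPM in H89 tumors, and no marker was at 0 in all tumors. The T cell marker level had the direction of Pdcd1, Lag3, Ctla4 and Icos and not that of Tigit, and its part in these values was not tested beyond the ratio to Cd3e.

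Divided by Cd3e in the same tumor, none of the 10 genes separated the groups, where 3.31% of all genes did (3.22% lower and 0.0916% higher in H89 tumors). The median log2 difference of the 10 was -0.21, against -1.16 over all genes, Cd3e itself having the higher mean in H89 tumors. It was 0.03 without H89 tumor 1. The count was also 0 relative to Cd4, but not relative to the other denominators used. Relative to Ptprc, the leukocyte gene of CD45, 4 of the 10 (Havcr2, Tigit, Cd80 and Cd86) lay lower in every H89 tumor, where 80.8% of all genes did. Relative to the geometric mean of Cd3e, Cd3d and Cd3g it was 2 (Havcr2 and Tigit), where 14.1% of all genes did. Relative to Cd8a and to Foxp3 it was Tigit alone, where 41.2% and 44.6% did. With library sizes set by Cd3e, edgeR gave the 10 genes adjusted p from 0.311 to 0.912 and called 0 of them, where it called 0.0991% of all genes. At an unadjusted p under 0.05 0 of the 10 passed in that fit, and the exact permutation p of the 10 ratios ran from 0.2 to 0.7.

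**Figure D2:**
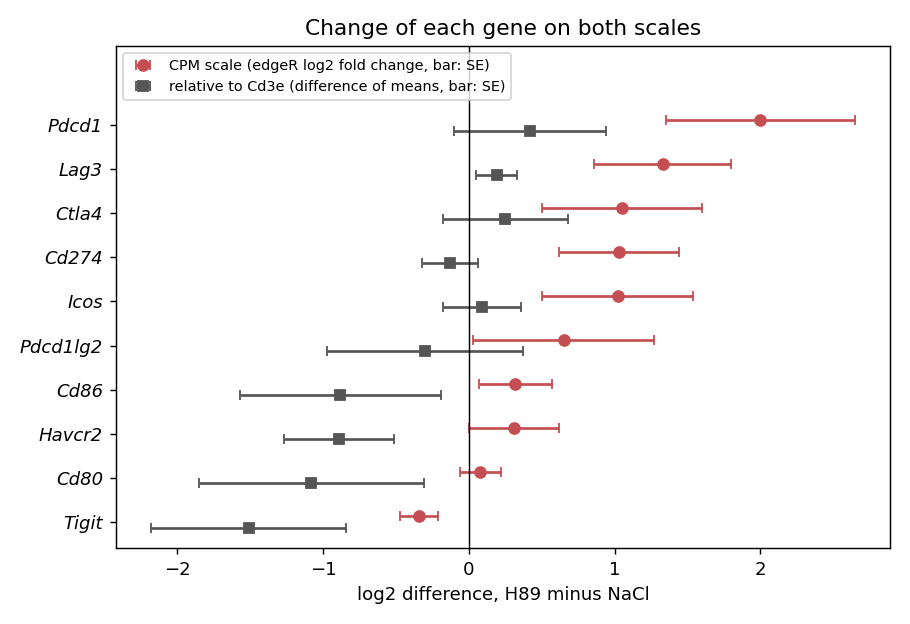
Difference between H89 and NaCl tumors for each gene on the log2 scale, in order of the CPM value, as edgeR log2 fold change with its SE (circles) and as the difference in mean log2 ratio to Cd3e with its SE over 3 and 3 tumors (squares). Pdcd1 is at 2.00 on the first scale and 0.42 on the second, Cd274 at 1.03 and -0.13, and Tigit at -0.34 and -1.51.

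The ratio of Lag3 to Cd3e was 1.24, 1.60 and 1.24 in NaCl and 1.55, 1.65 and 1.41 in H89 tumors, a log2 difference of 0.19 (exact permutation p = 0.3). Lag3 spanned 7.48-fold over the 6 tumors in CPM and 1.33-fold relative to Cd3e. The ratio of Cd274 to Cd3e was 9.27, 12.9 and 10.7 in NaCl and 9.03, 11.9 and 9.03 in H89 tumors, a log2 difference of -0.13 (exact permutation p = 0.5). Cd274 spanned 5.56-fold in CPM and 1.43-fold relative to Cd3e, and no tumor stood out on the second scale. For Icos the span was 6.15-fold in CPM and 1.69-fold relative to Cd3e, with a log2 difference of 0.09 (exact permutation p = 0.7). For these genes, most of the spread over tumors was shared with Cd3e.

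Pdcd1 relative to Cd3e was 0.390, 0.532 and 1.00 in NaCl and 0.765, 0.544 and 1.19 in H89 tumors, a log2 difference of 0.42 (exact permutation p = 0.4). Relative to Cd8a, encoding the CD8 alpha chain of cytotoxic T cells, it was 0.408, 0.409 and 0.416 in NaCl and 0.416, 0.367 and 0.540 in H89 tumors. Pdcd1 spanned 10.4-fold in CPM, 3.06-fold relative to Cd3e and 1.47-fold relative to Cd8a, so it kept closest to the CD8 transcript. Cd8a was at 3.62, 2.28 and 2.98 CPM in NaCl and at 8.66, 3.56 and 18.0 CPM in H89 tumors, with a log2 fold change of 1.76 ± 0.53 and an edgeR adjusted p of 0.104. Ctla4 relative to Cd3e was 0.505, 0.362 and 0.265 in NaCl and 0.439, 0.646 and 0.287 in H89 tumors, a log2 difference of 0.25 (exact permutation p = 0.6). Relative to Foxp3, the defining factor of regulatory T cells, Ctla4 was 0.631, 0.372 and 0.558 in NaCl and 0.486, 0.380 and 0.789 in H89 tumors, so that 2 H89 tumors lay within the NaCl range and H89 tumor 3 above it.

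Tigit, Cd80, Cd86 and Havcr2, 4 of the 10, spanned more relative to Cd3e than in CPM. Tigit relative to Cd3e was 2.97, 6.32 and 9.35 in NaCl and 1.71, 3.65 and 1.22 in H89 tumors, a log2 difference of -1.51 (exact permutation p = 0.2). It spanned 1.44-fold in CPM and 7.66-fold relative to Cd3e, the reverse of Lag3. Cd80 behaved likewise, with 1.31-fold in CPM and 6.97-fold relative to Cd3e, and a log2 difference of -1.08 (exact permutation p = 0.3). Cd86 and Havcr2 had log2 differences relative to Cd3e of -0.88 and -0.89 (exact permutation p = 0.2 for both). Pdcd1lg2 spanned less, with 6.10-fold in CPM and 3.64-fold relative to Cd3e.

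**Figure D3:**
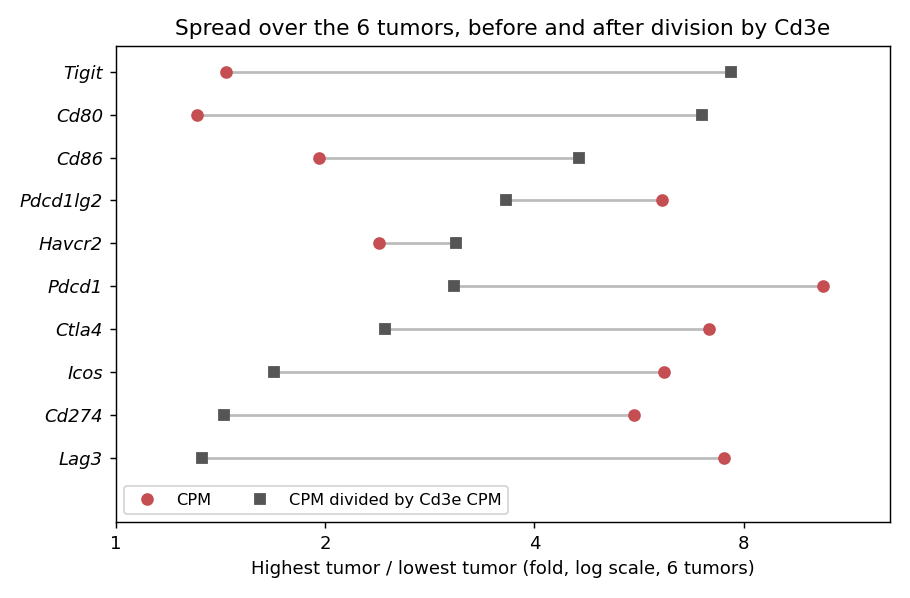
Highest over lowest tumor for each gene on a log axis, in CPM (circles) and in CPM divided by Cd3e CPM (squares), over 6 tumors. Division by Cd3e shrinks the span of Lag3 from 7.48 to 1.33 and of Cd274 from 5.56 to 1.43, and widens that of Tigit from 1.44 to 7.66 and of Cd80 from 1.31 to 6.97.

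The same was seen in correlations of log2(CPM + 0.5) over the 6 tumors, which share the treatment contrast and 1 library each; 105 relations were computed in this family, with exact two-sided permutation tests and Benjamini-Hochberg adjustment. Cd274 and Cd3e had r = 0.98 (exact p = 0.00139, adjusted 0.0208) and rho = 1.00 (exact p = 0.00278, adjusted 0.0194), and r = 0.99 in the 4 tumors left without the extremes of Cd3e, NaCl tumor 3 and H89 tumor 3. Lag3 and Cd3e had r = 0.98 (exact p = 0.00278, adjusted 0.0292) and the same rho, and r = 0.96 in those 4 tumors. Pdcd1 and Cd8a had r = 0.99 (exact p = 0.00139, adjusted 0.0208) and rho = 1.00, and r = 0.96 without H89 tumors 1 and 3. These genes thus ranked the 6 tumors as the T cell transcript did. Cd86 followed Adgre1, which encodes the macrophage marker F4/80, with r = 0.88 (exact p = 0.0139, adjusted 0.0844) and rho = 0.94 (exact p = 0.0167, adjusted 0.0648), and r = 0.74 without NaCl tumor 1 and H89 tumor 3. Tigit and Cd3e had r = -0.45 (exact p = 0.361, adjusted 0.536) and rho = -0.60 (exact p = 0.242, adjusted 0.409). With 3 tumors in each group no correlation within a group was computed.

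**Figure D4:**
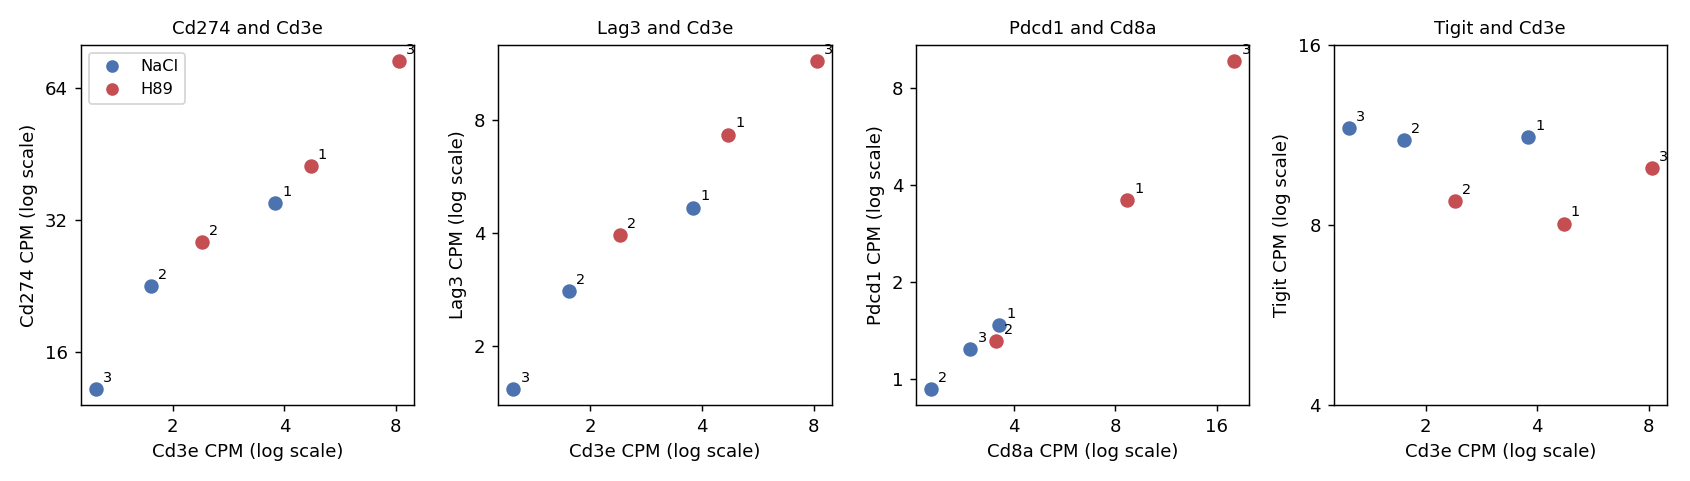
CPM of Cd274 and Lag3 against Cd3e, of Pdcd1 against Cd8a and of Tigit against Cd3e, on log axes, 1 point per tumor with its number, NaCl in blue and H89 in red. In the first 3 panels the tumors of both groups lie along 1 line (r = 0.98, 0.98 and 0.99), with NaCl tumor 1 beyond H89 tumor 2, whereas Tigit lies between 8.04 and 11.6 CPM across the whole Cd3e range.

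Of all 13118 genes tested, those whose pattern over the 6 tumors was most like that of Cd274 were Sema4d (r = 0.998), Sh2d2a (r = 0.995) and Zcchc2 (r = 0.995), and those most like Pdcd1 were Cd8a (r = 0.994), Tspan13 (r = 0.987) and Slc17a6 (r = 0.987). Sema4d, a semaphorin of lymphocytes, was at 5.77 to 11.4 CPM in NaCl and 9.35 to 18.8 CPM in H89 tumors. Sh2d2a, the T cell adaptor TSAd, was at 1.64 to 5.74 and 3.90 to 13.6 CPM. Slc17a6 was at 0.110 to 0.396 CPM in NaCl tumors, from 3 to 11 counts. Such values are the highest of many over few tumors and describe only a shared order of levels.

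Between genes, levels were compared as CPM per kb of the longest transcript, averaged over 6 tumors. Tigit had the highest level, 11.0 ± 1.58 (SD, n = 6), followed by Cd274 at 9.91 ± 5.81, and the ranges of these neighbours overlapped. Within the groups their order differed, with Tigit at 12.3 and Cd274 at 6.52 in NaCl, and Cd274 at 13.3 and Tigit at 9.71 in H89 tumors. Cd80 (3.32 ± 0.311), Havcr2 (3.15 ± 1.11), Cd86 (2.79 ± 0.776) and Lag3 (2.65 ± 1.80) came next and did not differ beyond their spread. Pdcd1 (1.58 ± 1.77), Pdcd1lg2 (1.48 ± 0.934), Icos (1.07 ± 0.615) and Ctla4 (0.761 ± 0.421) were the lowest, again within each other's spread. Tigit was at 8.75 to 12.6 CPM per kb, while Cd3e was at 0.487 to 3.20 and Cd8a at 0.729 to 5.76, so this receptor gene lay above both T cell genes in every tumor. With the median transcript length in place of the longest, Tigit and Cd274 remained the highest and the order below them changed, with Cd86 at 8.70, Cd80 at 6.19, Lag3 at 4.37, Ctla4 at 2.13 and Icos at 1.70.

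Related genes were also set against each other in the same tumor, for 8 fixed pairs. The pairs were of receptor and ligand, of ligands, of receptors, or of Ctla4 and Foxp3. All 8 ratios overlapped between groups, with exact permutation p from 0.4 to 0.9 and 0.9 after Benjamini-Hochberg adjustment, in a design whose smallest p is 0.1. Cd274 exceeded Pdcd1 by 23.7, 24.2 and 10.7 times in NaCl and by 11.8, 21.8 and 7.57 times in H89 tumors, a log2 difference of -0.55. The ratio of Tigit to Pvr, its ligand, was the steadiest, at 0.0870, 0.0913 and 0.0749 in NaCl and 0.0969, 0.0902 and 0.0763 in H89 tumors. Icos relative to its ligand Icosl was 1.16, 0.260 and 0.168 in NaCl and 0.887, 0.557 and 0.742 in H89 tumors, a log2 difference of 0.95 (exact permutation p = 0.4). Cd80 relative to Cd86 was 1.55 to 1.76 in NaCl and 0.992 to 1.88 in H89 tumors, and the lowest value was that of H89 tumor 3.

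In the wider checkpoint network, 14 of 15 other receptors were tested, with a median log2 fold change of 0.80. Of these, 0 passed an adjusted p under 0.05 in edgeR and 2 did in DESeq2, beside 1.59% and 10.4% of all genes. In edgeR 6 had an unadjusted p under 0.05, all with higher values in H89 tumors, as did 13.1% of all genes. Cd27, a costimulatory receptor of the TNF receptor family, was at 1.65, 0.969 and 0.920 CPM in NaCl and at 5.10, 2.24 and 3.96 CPM in H89 tumors, with a log2 fold change of 1.67 ± 0.37 and an edgeR adjusted p of 0.0653. Btla, an inhibitory receptor of T and B cells, was at 0.540, 0.597 and 0.402 CPM in NaCl and at 0.856, 1.40 and 1.64 CPM in H89 tumors (edgeR adjusted p = 0.0804). Lair1, an inhibitory collagen receptor of leukocytes, was at 7.42 to 12.2 CPM in NaCl and at 14.4 to 27.9 CPM in H89 tumors (edgeR adjusted p = 0.0827). These 3 had the smallest p of the list. In all, 5 of the 14 lay higher in every H89 tumor, as did 15.2% of all genes.

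Of 18 other ligands, 12 were tested, with a median log2 fold change of 0.02. After adjustment 0 were called by edgeR and 2 by DESeq2, beside 1.59% and 10.4% of all genes. At an unadjusted p under 0.05 in edgeR, 3 were higher and 2 lower, beside 13.1% and 11.9% of all genes. Tnfrsf14 encodes HVEM, the ligand of BTLA, and was at 0.342, 1.60 and 0.522 CPM in NaCl and at 2.55, 2.96 and 4.70 CPM in H89 tumors, with a log2 fold change of 2.04 ± 0.53 (edgeR adjusted p = 0.0827). Cd160, the other receptor for HVEM in the lists, was at 0.439 to 1.19 CPM in NaCl and at 0.669 to 1.49 CPM in H89 tumors, with overlap. Nectin2, another ligand of TIGIT, was at 38.9, 35.6 and 36.1 CPM in NaCl and at 29.1, 29.8 and 27.3 CPM in H89 tumors, a log2 fold change of -0.36 ± 0.09 (edgeR adjusted p = 0.0729). Pvr was at 121 to 155 CPM in NaCl and at 83.0 to 130 CPM in H89 tumors, a log2 fold change of -0.38 ± 0.17 (edgeR adjusted p = 0.212). Nectin3, a further ligand of TIGIT, was at 1.26, 1.58 and 1.25 CPM in NaCl and at 2.16, 1.80 and 2.05 CPM in H89 tumors, a log2 fold change of 0.56 ± 0.23 (edgeR adjusted p = 0.178). The ligands of TIGIT thus had values in both directions. Nectin2 was lower without overlap, as were 15.5% of all genes. Nectin3 was higher without overlap, as were 15.2%, and Pvr overlapped between groups.

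Inside the cell, 0 of 12 mediators of checkpoint signals passed the adjusted threshold in edgeR and 3 in DESeq2, beside 1.59% and 10.4% of all genes. At an unadjusted p under 0.05 in edgeR, 4 were higher and 2 lower, beside 13.1% and 11.9% of all genes. The median log2 fold change of the 12 was 0.30. Ubash3a, a phosphatase that restrains T cell receptor signals, was at 0.410 to 1.15 CPM in NaCl and at 1.34 to 2.65 CPM in H89 tumors (log2 fold change 1.55 ± 0.44, edgeR adjusted p = 0.0964). Csk, the kinase that holds LCK inactive, was at 129 to 140 CPM in NaCl and at 110 to 117 CPM in H89 tumors (log2 fold change -0.27 ± 0.08, edgeR adjusted p = 0.0977). Of 13 tested factors of T cell exhaustion and activation, 0 passed the adjusted threshold in edgeR and 1 in DESeq2, beside 1.59% and 10.4% of all genes. At an unadjusted p under 0.05 in edgeR, 5 were higher and 1 lower, beside 13.1% and 11.9% of all genes. The median log2 fold change of the 13 was 0.43. Tox, the factor that sustains exhausted T cells, had the largest log2 fold change of the list, 2.60 ± 0.65 (edgeR adjusted p = 0.0800). It was scarce, at 0.697, 0.186 and 0.294 CPM in NaCl, from 5 to 19 counts, and at 1.68, 1.10 and 4.35 CPM in H89 tumors. Tcf7, which marks memory-like T cells, was at 1.94 to 2.55 and 2.83 to 5.47 CPM (log2 fold change 0.81 ± 0.29). Its relative Lef1 went the other way, at 10.9 to 11.3 CPM in NaCl and 6.87 to 9.08 CPM in H89 tumors (log2 fold change -0.43 ± 0.14). Of the 13, 5 were higher without overlap, as were 15.2% of all genes. Lef1 alone was lower without overlap, as were Tigit and 15.5% of all genes.

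The interferon-gamma pathway that acts on Cd274 was described by 12 genes, all tested. In edgeR 0 passed the adjusted threshold and 3 the unadjusted one, beside 1.59% and 25.0% of all genes. DESeq2 called 2, where it called 10.4% of the genes it tested, and the median log2 fold change was 0.16. Irf1, the factor that carries the signal to the Cd274 gene, was at 117, 107 and 56.9 CPM in NaCl and at 185, 131 and 214 CPM in H89 tumors, with a log2 fold change of 0.92 ± 0.28 (edgeR adjusted p = 0.106). Irf9 was at 30.0 to 47.7 and 55.0 to 81.3 CPM (log2 fold change 0.81 ± 0.20, edgeR adjusted p = 0.0800). Irf1 and Irf9 were higher without overlap, as were 15.2% of all genes.

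**Figure D5:**
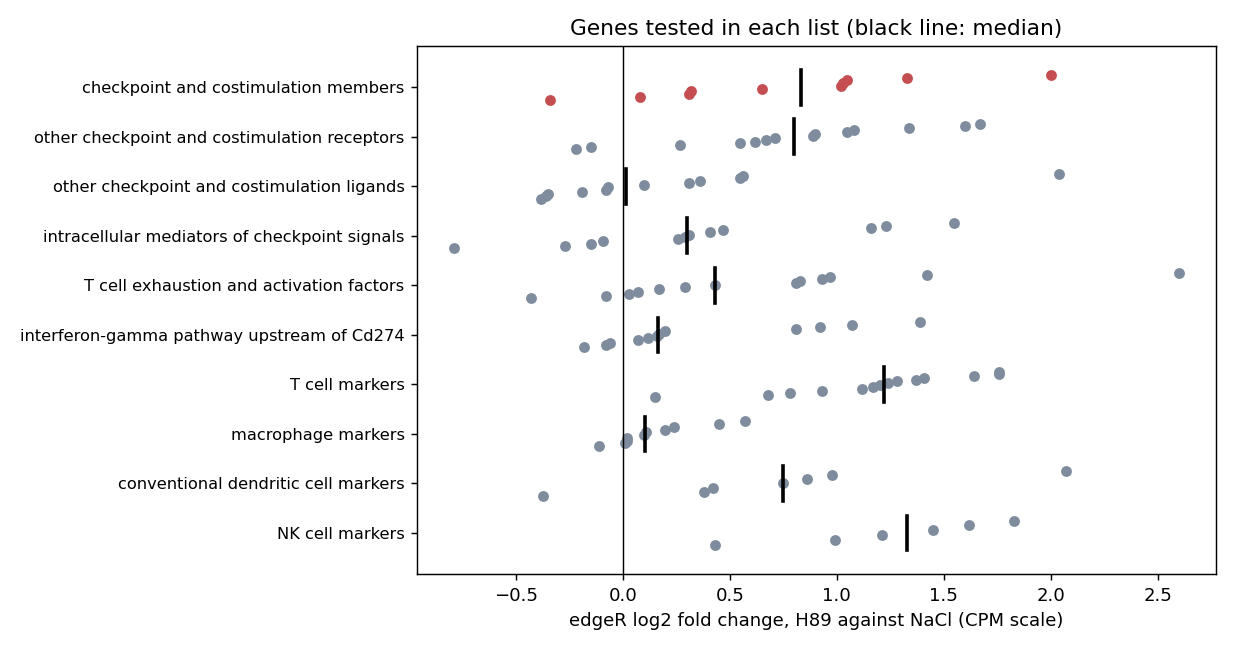
EdgeR log2 fold change of H89 against NaCl for each gene tested, 1 point per gene and 1 row per list, with the median of the list as a black line. The medians are 0.83 for the 10 checkpoint genes, 0.80 for other receptors, 0.02 for other ligands, 1.22 for T cell markers and 0.11 for macrophage markers.

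Cell types other than T cells carry part of these genes. For NK cells, 6 of 7 markers were tested, with a median log2 fold change of 1.33. At an unadjusted p under 0.05 in edgeR, 3 were higher, beside 13.1% of all genes. After adjustment edgeR called 0 and DESeq2 3, beside 1.59% and 10.4% of all genes. The summed level of the NK cell markers was 12.0 to 61.4 CPM in NaCl and 39.7 to 111 CPM in H89 tumors. Most of it came from Gzma and Prf1 and less from the NK cell receptors. Gzma was at 5.37 to 24.3 CPM in NaCl and 20.4 to 45.2 CPM in H89 tumors. Prf1 was at 2.74 to 26.2 and 6.66 to 35.1 CPM. Klra8 was at 0 in all tumors. For regulatory T cells, 5 of 6 markers were tested, with a median of 0.44 and a summed level of 7.04 to 18.4 and 15.6 to 17.3 CPM. The 10 macrophage markers had a median of 0.11 and a summed level of 1240 to 2050 CPM in NaCl and 1670 to 1960 CPM in H89 tumors, which overlap between groups. Of 9 dendritic cell markers, 7 were tested, with a median of 0.75. The groups did not overlap for 3 as higher and 1 as lower, beside 15.2% and 15.5% of all genes. The summed level of the dendritic cell markers was 384 to 496 CPM in NaCl and 319 to 384 CPM in H89 tumors, most of it from Fscn1. The direction of the sum is thus that of Fscn1. Of the 7 tested, 6 had a log2 fold change above 0 and 1, Fscn1, had one below 0. Itgax was at 3.95 to 5.93 CPM in NaCl and at 5.24 to 10.4 CPM in H89 tumors (log2 fold change 0.86, edgeR adjusted p = 0.127), with overlap. Fscn1, an actin-bundling gene of mature dendritic cells, was at 368 to 472 CPM in NaCl and at 287 to 359 CPM in H89 tumors (log2 fold change -0.37, edgeR adjusted p = 0.133). Xcr1, which marks cross-presenting dendritic cells, was at 0.229 to 0.408 CPM in NaCl and at 0.514 to 2.18 CPM in H89 tumors (log2 fold change 2.07, edgeR adjusted p = 0.0869). Ptprc, the pan-leukocyte gene of CD45, was at 25.2, 31.5 and 29.9 CPM in NaCl and at 48.2, 47.2 and 78.8 CPM in H89 tumors (log2 fold change 1.01 ± 0.21, edgeR adjusted p = 0.0547), without overlap. The part of these cell types in the values of the 10 genes was not tested.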

How the data were processed

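Total RNA of 6 frozen CT26 tumors was sequenced on the BGISEQ-500 platform. The authors deposited a table of estimated counts per gene and tumor, named TPM although no tumor's values sum to 1000000; they are scaled neither for depth nor for gene length. The submitters' processing notes name kallisto, DESeq2 and GRCm38 without versions; strand setting and filters are not given in the sources used here. Groups and replicate numbers came from the sample labels.

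Estimated counts were rounded and tested with edgeR 4.0.16 (R 4.3.3, TMM, glmQLFit, glmQLFTest) across 13118 genes with a mean of at least 0.5 CPM. Benjamini-Hochberg adjustment covered all of them, and the threshold was 0.05. Each SE was derived from the fold change and the F statistic. On simulated data with 200 changed genes among 13118, the test recovered 168 with 8 false calls. Ratios between genes were tested by exact two-sided permutation (scipy 1.17.1). Alternatives used DESeq2 1.42.0, limma 3.58.1, other filters, scalings and pseudocounts, a replicate block, other denominators, and each tumor left out. Permutation tests of the correlations, CPM without TMM and the NFAT core motif were added after the data were seen. The named genes are the 10 genes, the denominators, the genes of fixed pairs, the 3 with the smallest p in each further list and the 3 most like Cd274 and Pdcd1. Not every one of them is reported here. Nectin3, Cd160, S100a9, Retnlg, Krt8, Cdh1 and Epcam were named after their values were seen. The 10 genes and all lists were chosen with earlier results of these data known. Positions are GENCODE M21 (GRCm38), matched by symbol. A planned comparison of protein sequences was not run. Counting error was not separated from the spread between tumors.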

Additional observations from a re-analysis of the deposited data

How the results depend on the processing

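No checkpoint gene passed the adjusted threshold in 15 of the 16 alternatives, and DESeq2 called 2, Pdcd1 (log2 fold change 1.99) and Lag3 (1.32). Over all genes, edgeR called 208, DESeq2 1392 and limma after quantile normalization 80. Without single tumors, 0 to 12 genes were called. The median log2 fold change of the 10 genes was 0.83, 0.35 over the 6 that average 5 CPM or more, and 0.39 to 1.54 without single tumors (0.39 without H89 tumor 3, 1.54 without NaCl tumor 1). Relative to Cd3e the median was -0.21, and -0.52 to 0.03 without single tumors. The replicate numbers did not pair the tumors (correlations of deviations 0.164, 0.063 and -0.025). With the replicate block, 0 genes were called, with 3750 at an unadjusted p under 0.05, and the medians were 0.93 and -0.21. Cd80 was at -0.02 under quantile normalization. Values that changed sign without single tumors had log2 fold changes of -0.03 to 0.17 (Cd80) and -0.09 to 0.57 (Havcr2) and log2 ratios of -0.68 to 0.21 (Pdcd1lg2 to Cd274), -0.40 to 0.06 (Cd80 to Cd86), -0.13 to 0.57 (Ctla4 to Cd28), -0.24 to 0.29 (Ctla4 to Foxp3, also -0.14 with 0.5 CPM added), -0.03 to 0.15 (Tigit to Pvr) and -0.20 to 0.46 (Havcr2 to Lgals9). The cause was not tested. Against other denominators the median over the 10 genes was -0.34 (mean of 3 CD3 genes), -0.03 (Ptprc), -0.55 (Cd8a), -0.42 (Foxp3) and 0.17 (Cd4). Without TMM, 20.5% of all genes lay higher and 10.0% lower without overlap, against 15.2% and 15.5%. EdgeR called 113 genes higher and 95 lower, and 117 and 62 with upper quartile scaling. Limma on log2(CPM + 0.5), which was run without TMM, called 143 and 28, and 55 and 25 after quantile normalization. Depth limits Ctla4 most, at 9 to 77 counts.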

Other observations

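Fixed lists of other cell types gave further values. B cell markers had a summed level of 3.77 to 4.46 CPM in NaCl and 5.19 to 7.09 CPM in H89 tumors, without overlap, from 3 of 6 genes tested. Neutrophil markers summed to 16.2 to 20.5 and 20.3 to 34.5 CPM, with Ly6g at 0 throughout. Their median change was -0.20 (log2, 4 of 6 genes tested). Csf3r, the receptor of the granulocyte growth factor, was at 7.70 to 10.5 CPM in NaCl and at 15.0 to 22.8 CPM in H89 tumors (log2 fold change 0.90, edgeR adjusted p = 0.0682), whereas S100a8 and S100a9 had log2 fold changes of -0.85 and -0.70, with overlap, and Retnlg, not tested, was at 0.0746 to 0.146 and 0 to 0.0608 CPM. Fibroblast markers summed to 2480 to 2710 and 2780 to 3560 CPM, endothelial markers to 94.9 to 159 and 80.9 to 123 CPM, and keratinocyte markers to 2.01 to 3.47 and 3.01 to 3.64 CPM, with Krt1 at 0. The epithelial genes Krt20 and Krt18 had log2 fold changes of -0.47 and -1.04 (edgeR adjusted p = 0.0627 and 0.0653). They were lower without overlap between groups, as were 15.5% of all genes. Krt19, Krt8 and Cdh1 had 2.56, 1.03 and 0.05, with overlap, and Epcam, not tested, was at 0 to 0.0373 and 0.0912 to 1.18 CPM. The median of the 5 tested was 0.05.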
